A study of Rattus norvegicus with 4 samples.

Results

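A set of 35 endoplasmic reticulum (ER) stress and folding genes was followed in the hypothalamus of hypothyroid rats given triiodothyronine (T3, the active thyroid hormone). The genes were listed by name, and each was read from the probes whose accession belonged to it, the brightest probe standing for the gene. Of the 35 genes, 28 had a matched probe that was well above background on at least 3 arrays in the T3 or the saline channel, among 9304 genes measured. The other 7, Manf, Ero1b, Ern1, Xbp1, Trib3, Edem1 and Derl2, had no matched probe and have no value here. The T3 rats drank 0.025% methimazole (MMI), which blocks thyroid hormone synthesis, over 22 days, were injected with 25 µg T3 per 100 g on day 21 and were killed 24 hours after the injection. The saline rats had the same MMI course and a saline injection. All 8 rats, 4 per treatment, were male Sprague Dawley rats on chow, aged 7 weeks when the study began and 10 weeks when killed, and a group without MMI was not analysed here. RNA of tissue blocks taken between bregma -2.12 and -4.52 was put on 4 two-colour Agilent arrays, each with a T3 sample in one dye and a saline sample in the other. The labels do not name the animal on each array, and with 8 rats and 4 replicates per treatment each array was taken here to hold 1 T3 rat and 1 saline rat. T3 was in the red dye Cy5 on arrays 1 and 3 and in the green dye Cy3 on arrays 2 and 4. The comparison asks which hypothalamic transcripts differed a day after T3 was given back.

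Proteins that are secreted or sit in membranes fold in the ER with the help of chaperones and of enzymes that form disulfide bonds, and those that stay misfolded are drawn out and degraded. When unfolded proteins build up, the sensors Ern1 (IRE1), Atf6 and Eif2ak3 (PERK) start the unfolded protein response. Atf6 and the Xbp1 factor made downstream of Ern1 act on chaperone promoters through the ER stress element (ERSE), while Eif2ak3 slows translation and favours the factor Atf4, which acts on amino acid and stress genes such as Asns, Chac1, Trib3 and Ddit3. Peptide-secreting neurons of the hypothalamus place a steady demand on this folding machinery.

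The promoter letters through which these branches act are shown first, because the chaperones and the Atf4 branch are set against each other below. RefSeq promoters of build GRCr8, from 250 bases before to 50 after the annotated start, were found for 29 of the 35 genes and not for Manf, Pdia3, Pdia6, Ern1, Atf6 and Derl1. Each was searched on both strands. The ERSE letters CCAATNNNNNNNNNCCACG occurred in 22 of all 33469 RefSeq promoter entries (0.0657%) and in 8 of the 29 genes of the set with an entry. A gene can have more than 1 entry, so these shares are of unlike units. Those 8 were 6 of the 11 chaperones with a promoter entry, the oxidase gene Ero1b and Xbp1. Of the 5 Atf4 branch genes with an entry, 0 held the letters, which is not unusual at a share of 0.0657%. The stretches of the 6 chaperones are given in the direction of the gene, with the match in capitals. A match on the opposite strand begins with CGTGG and ends with ATTGG.
Hspa5 (chr3:38452953-38453011, plus strand): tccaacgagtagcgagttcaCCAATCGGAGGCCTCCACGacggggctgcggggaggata
Hsp90b1 (chr7:23012431-23012489, minus strand): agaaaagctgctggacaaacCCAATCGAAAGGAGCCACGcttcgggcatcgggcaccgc
Hsp90b1 (chr7:23012327-23012385, minus strand): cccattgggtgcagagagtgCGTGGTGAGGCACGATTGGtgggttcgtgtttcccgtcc
Calr (chr19:40213117-40213173, plus strand): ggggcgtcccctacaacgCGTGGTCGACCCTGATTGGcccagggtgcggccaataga
Canx (chr10:35158049-35158107, minus strand): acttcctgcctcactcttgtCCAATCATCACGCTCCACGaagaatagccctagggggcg
Creld2 (chr7:121789219-121789277, plus strand): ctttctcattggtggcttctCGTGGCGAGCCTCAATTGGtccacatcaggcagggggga
Dnajc3 (chr15:102432514-102432572, plus strand): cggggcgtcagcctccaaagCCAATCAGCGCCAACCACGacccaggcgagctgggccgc

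The shorter ERSE-II letters ATTGGNCCACG occurred in 17 promoters (0.0508%), 3 of them in the set. They belonged to the chaperone genes Dnajb11 and Hyou1 and to the degradation gene Herpud1. Hyou1 had 2 matches in the same promoter entry, and another of its entries had none. The matches are again in capitals and do not overlap a full ERSE match.
Dnajb11 (chr11:91672780-91672830, minus strand): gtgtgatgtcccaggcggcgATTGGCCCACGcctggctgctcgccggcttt
Hyou1 (chr8:53602674-53602724, plus strand): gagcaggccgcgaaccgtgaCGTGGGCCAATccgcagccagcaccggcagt
Hyou1 (chr8:53602774-53602824, plus strand): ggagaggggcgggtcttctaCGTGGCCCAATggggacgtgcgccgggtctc
Herpud1 (chr19:10614801-10614851, minus strand): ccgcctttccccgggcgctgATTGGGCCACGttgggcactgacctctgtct

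The letters TGACGTGG, the core of the unfolded protein response element, occurred in 199 promoters (0.595%) and in 1 of the set, Hyou1, where they overlap the first of its ERSE-II matches. For the Atf4 branch, the core of the composite C/EBP and Atf response element, TGATGNAA, was searched. This core occurred in 1332 promoters (3.98%), among them those of Chac1, Trib3 and Herpud1. Chac1 and Trib3 were 2 of the 5 Atf4 branch genes with a promoter entry, and Trib3 has no expression value here. Asns, Atf4 and Ddit3 held none of the searched letters. The core was in 0 of the 11 chaperone genes with a promoter entry, which is not unusual at a share of 3.98%. The capitals mark it in the stretches below.
Chac1 (chr3:126795944-126795991, plus strand): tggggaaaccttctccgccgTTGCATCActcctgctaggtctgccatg
Herpud1 (chr19:10614864-10614911, minus strand): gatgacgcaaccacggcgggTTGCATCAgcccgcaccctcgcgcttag
Trib3 (chr3:161275527-161275574, minus strand): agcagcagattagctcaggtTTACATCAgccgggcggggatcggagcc
A match describes the letters and not a bound site, and a promoter without one lacks only these letters in this window. Among the chaperones with a promoter entry, Sdf2l1, Dnajb9 and Ppib held none of the searched letters.

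**Figure D1:**
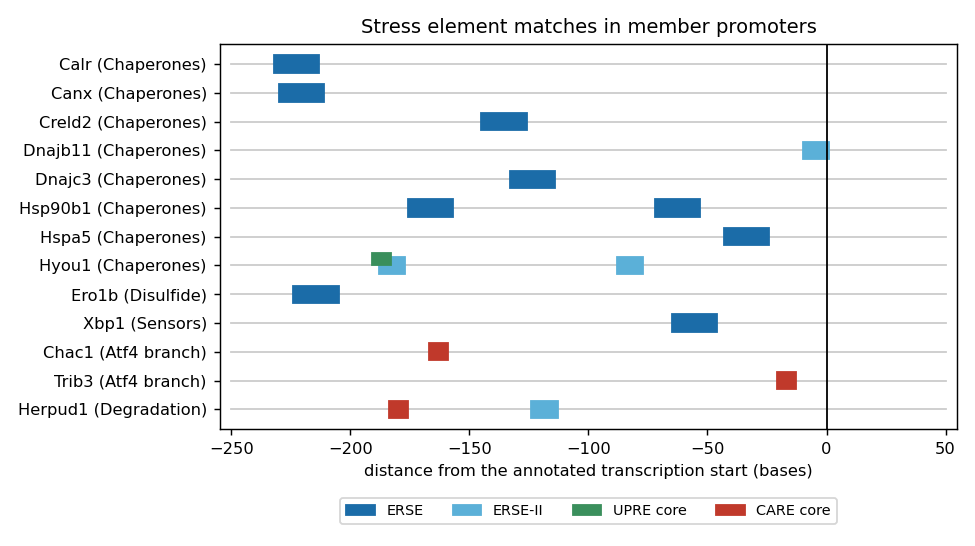
Matches to the 4 searched elements in the RefSeq promoters of the 13 genes with a match, by distance from the annotated transcription start in bases. ERSE and ERSE-II matches fall mostly on chaperone genes, and the matches to the Atf4-type core on Chac1, Trib3 and Herpud1.

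None of the 28 measured genes passed the limma test (adjusted p under 0.05, over all kept probes), against 0.161% of all 9304 genes in either direction. The lowest limma adjusted p of the set was 0.44, for Dnajb11. The mean log2 ratio of T3 over saline was above 0 for 20 of the 28 genes, against 51.9% of all genes. At an unadjusted limma p under 0.05, 3 of the 28, the chaperone genes Dnajb11, Calr and Hspa5, were higher after T3 and 0 were lower, against 5.34% and 3.92% of all genes. The ratio was above 0 on all 4 arrays for 5 genes, Dnajb11, Calr, Pdia3, Sel1l and Sec61b, and below 0 on all 4 for none, against 9.47% and 7.81% of all genes. The T3 rats and the saline rats overlapped in brightness for all 28 genes, and did not overlap for 2.18% of all genes. All 28 probes were well above background in every channel and none was saturated. In a block of tissue, fewer cells of a type and less RNA per cell cannot be told apart.

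**Figure D2:**
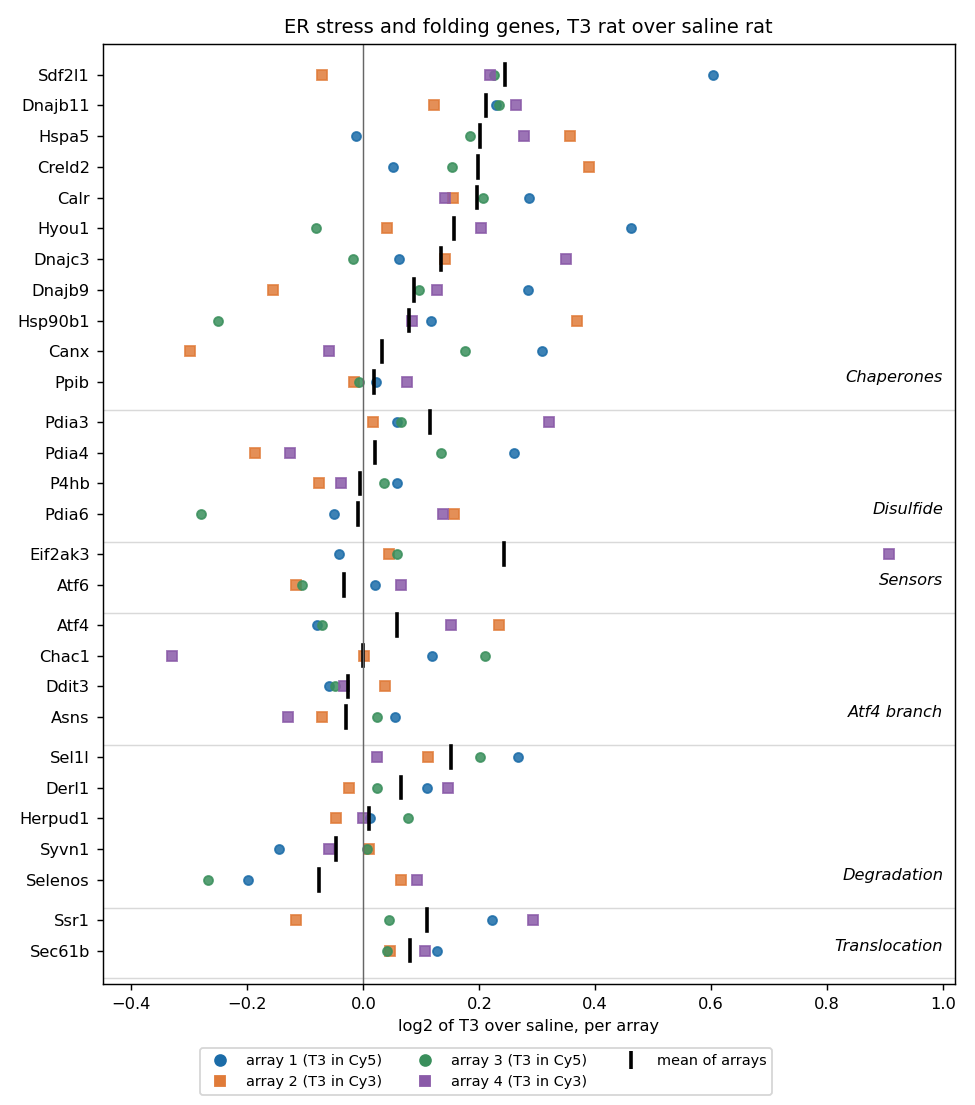
Log2 ratio of T3 over saline for each of the 28 measured genes, grouped by role, with 1 point per array and a bar at the mean of the arrays. The means of the 11 chaperones all lie above 0, from 0.02 (Ppib) to 0.24 (Sdf2l1), and the ratios of the 4 Atf4 branch genes lie on both sides of 0.

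The chaperones and co-chaperones had the highest median ratio among the roles with at least 4 measured genes. Their means were all above 0, in 11 of 11 genes after loess normalization, in 9 of 11 with median centring of the arrays and in 10 of 11 when any 1 array was left out. The median of the 11 means was 0.16 on the log2 scale, beside 0.004 over all genes. Single ratios were above 0 in 33 of 43 cases, 10 of 11 on array 1, 7 of 11 on array 2, 7 of 11 on array 3 and 9 of 10 on array 4. The 43 cases share 4 arrays and are not independent. No chaperone passed the adjusted test, which also called 0 of 100 simulated probes with a true log2 ratio of 0.2.

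Hspa5 (BiP), the main Hsp70 chaperone of the ER and the partner that holds the sensors inactive, is the classic readout of the response. Its normalized log2 brightness was 14.74, 14.91, 14.99 and 14.91 in the T3 rats of arrays 1 to 4, against 14.76, 14.55, 14.80 and 14.63 in the saline rats. The T3 rat was the brighter on arrays 2, 3 and 4 and level with the saline rat on array 1, and the groups overlapped through that array. The log2 ratio was 0.20 ± 0.16 (SD, n = 4 arrays), a 1.15-fold difference with a limma 95% interval of 0.0079 to 0.39 and a limma adjusted p of 0.59.

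Dnajb11, a J-domain co-chaperone that recruits Hspa5 to unfolded chains, had the steadiest ratio among the chaperones with a mean above 0.1. Its log2 brightness was 9.03, 8.83, 9.08 and 9.35 in the T3 rats, against 8.80, 8.71, 8.85 and 9.08 in the saline rats. The T3 rat was brighter on every array, but the groups overlapped. The T3 rat of array 2 (8.83) lay below the saline rats of arrays 3 and 4 (8.85 and 9.08). The ratio was 0.21 ± 0.06 (SD, n = 4), with a limma adjusted p of 0.44.

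Calr, the calcium-binding lectin chaperone calreticulin, behaved alike on each array. Its log2 brightness was 11.56, 11.57, 11.50 and 11.76 in the T3 rats, against 11.27, 11.42, 11.29 and 11.62 in the saline rats. Its ratios of 0.29, 0.15, 0.21 and 0.14 were all above 0, and the saline rat of array 4 lay above the T3 rats of arrays 1 to 3. The mean was 0.20 ± 0.07 (SD, n = 4) with a limma adjusted p of 0.50.

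**Figure D3:**
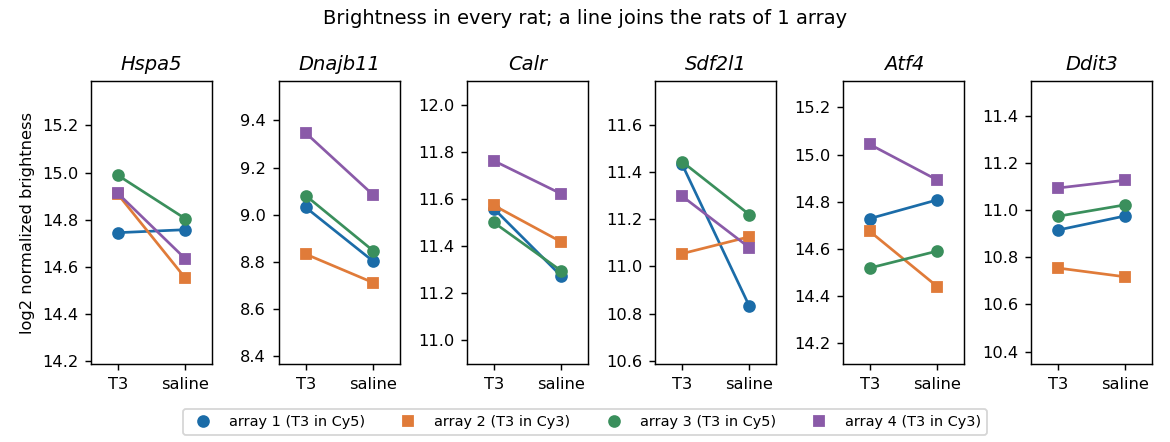
Normalized log2 brightness of 6 genes in the T3 rat (left) and the saline rat (right) of each array, joined by a line. The T3 rat lies above the saline rat on all 4 arrays for Dnajb11 and Calr, on 3 of 4 for Hspa5 and Sdf2l1, and on 2 and 1 of 4 for Atf4 and Ddit3.

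Sdf2l1, a component of Hspa5 complexes, had the highest mean of the set, 0.24 ± 0.28 (SD, n = 4), and rested most on array 1. Its log2 brightness was 11.44, 11.05, 11.44 and 11.30 in the T3 rats, against 10.83, 11.13, 11.22 and 11.08 in the saline rats. The ratio was 0.60 on array 1 and -0.07 on array 2, and without array 1 the mean was 0.12.

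Creld2, a secretory chaperone with disulfide isomerase activity, had ratios of 0.05, 0.39 and 0.15 on arrays 1 to 3, with no value on array 4, where the scanner software had marked its spot as an outlier. The 3 values average 0.20 ± 0.17 (SD, n = 3 arrays). Hyou1, a large nucleotide exchange factor for Hspa5, gave 0.46, 0.04, -0.08 and 0.20, and its dimmer probe gave a mean of 0.07 beside 0.16. Dnajc3, an Hspa5 co-chaperone that also restrains Eif2ak3, gave 0.06, 0.14, -0.02 and 0.35. The highest ratio came from array 2 for Creld2, array 1 for Hyou1 and array 4 for Dnajc3, and without that array the means were 0.10, 0.05 and 0.06.

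The remaining chaperones lay closer to 0. Dnajb9, a co-chaperone that keeps Ern1 inactive, gave 0.28, -0.16, 0.10 and 0.13 and averaged 0.09 ± 0.18 (SD, n = 4), with 0.02 without array 1 and 0.17 without array 2. Its other probe averaged 0.05. Hsp90b1 (Grp94), the Hsp90 of the ER, averaged 0.08 ± 0.25, with 0.37 on array 2 and -0.25 on array 3. Its dimmer probe averaged 0.13 through 0.78 on array 1 alone, so the probes of Hsp90b1 disagreed on which array was high.

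Canx, the membrane-bound lectin chaperone calnexin, averaged 0.03 ± 0.27, with ratios of 0.31 and 0.17 where T3 was in Cy5 and -0.30 and -0.06 where it was in Cy3. Its dimmer probe gave 0.52, -0.22, 0.17 and 0.05. Ppib, an ER cyclophilin that turns prolines, averaged 0.02 ± 0.04 and was the steadiest gene of the role. Its log2 brightness was 13.78, 13.72, 13.64 and 13.92 in the T3 rats, against 13.75, 13.74, 13.65 and 13.85 in the saline rats.

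The 4 measured genes of disulfide formation had a median mean ratio of 0.01, with 2 above and 2 below 0. Pdia3 (ERp57), the isomerase that works with Calr and Canx on glycoproteins, was above 0 on all 4 arrays at 0.06, 0.02, 0.07 and 0.32. Its mean of 0.12 ± 0.14 (SD, n = 4, limma adjusted p = 0.81) was 0.05 without array 4. Pdia4 averaged 0.02 ± 0.21, with 0.26 and 0.13 where T3 was in Cy5 and -0.19 and -0.13 where it was in Cy3. P4hb, the founding protein disulfide isomerase, averaged -0.01 ± 0.06 and Pdia6 -0.01 ± 0.20, the Pdia6 ratios being -0.05 and -0.28 with T3 in Cy5 and 0.16 and 0.14 with T3 in Cy3. For Pdia4 and Pdia6 the sign followed the dye, in opposite directions.

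Of the sensors and their transcription factors, Atf6 and Eif2ak3 were measured. Atf6, the factor that is cut free from the ER membrane under stress, had ratios of 0.02, -0.12, -0.11 and 0.07 and a mean of -0.03 ± 0.09 (SD, n = 4). Eif2ak3, the kinase PERK, had a mean of 0.24 ± 0.45 that came from array 4. Its log2 brightness was 7.98, 7.41, 7.70 and 8.92 in the T3 rats, against 8.02, 7.37, 7.64 and 8.01 in the saline rats. The ratio was 0.91 on array 4 and between -0.04 and 0.06 on the others, and without array 4 the mean was 0.02. With the scanner's processed signals the mean was 0.43. The limma adjusted p of Eif2ak3 was 0.79.

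The Atf4 branch stayed around 0. Its 4 measured genes had a median mean ratio of -0.01, and 8 of 16 single ratios were above 0. Atf4 itself, the factor translated when Eif2ak3 is active, had a log2 brightness of 14.73, 14.67, 14.52 and 15.04 in the T3 rats, against 14.81, 14.44, 14.59 and 14.89 in the saline rats. The saline rat was the brighter on arrays 1 and 3 and the T3 rat on arrays 2 and 4, and the mean ratio was 0.06 ± 0.16 (SD, n = 4, limma adjusted p = 0.94).

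Ddit3 (Chop), the factor tied to cell death under lasting stress, had a log2 brightness of 10.92, 10.75, 10.97 and 11.09 in the T3 rats, against 10.98, 10.72, 11.02 and 11.13 in the saline rats. The ratios lay between -0.06 and 0.04, and their mean of -0.03 ± 0.04 had a 95% interval of -0.18 to 0.13. Asns, asparagine synthetase, averaged -0.03 ± 0.08. Chac1, a glutathione-degrading enzyme, gave 0.12, 0.0004, 0.21 and -0.33 and a mean of -0.0003, while its other probe, above background in only 1 T3 and 3 saline channels, averaged 0.05.

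The degradation genes had a median mean ratio of 0.01, with 3 of 5 means above 0. Sel1l, the adaptor that links misfolded proteins to the ubiquitin ligase Syvn1, was above 0 on every array at 0.27, 0.11, 0.20 and 0.02, and averaged 0.15 ± 0.11 (SD, n = 4, limma adjusted p = 0.67). Its log2 brightness was 7.98, 7.72, 7.77 and 8.04 in the T3 rats, against 7.71, 7.61, 7.57 and 8.02 in the saline rats, the saline rat of array 4 lying within the T3 range. Its partner Syvn1 (Hrd1) averaged -0.05 ± 0.07.

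Herpud1, a scaffold of the same ligase complex that carries both an ERSE-II match and the Atf4-type core in its promoter, averaged 0.01 ± 0.05 with its brightest probe and -0.01 with the other. Selenos, a selenoprotein of the extraction machinery, averaged -0.08 ± 0.18, with -0.20 and -0.27 where T3 was in Cy5 and 0.07 and 0.09 where it was in Cy3. Derl1, a membrane protein through which clients leave the ER, averaged 0.06 ± 0.08.

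Both genes of translocation into the ER had a mean above 0. Sec61b, a subunit of the protein channel, was above 0 on all 4 arrays at 0.13, 0.05, 0.04 and 0.11, with a mean of 0.08 ± 0.04 (SD, n = 4) and a limma adjusted p of 0.86. Ssr1, a subunit of the translocon-associated protein complex, averaged 0.11 ± 0.18, with -0.12 on array 2 and 0.29 on array 4, and 0.05 without array 4.

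The chaperones were set against the Atf4 branch on each array, as a description with no test because the genes were chosen by name with earlier results known. The median ratio of the chaperones was 0.23, 0.12, 0.15 and 0.17 on arrays 1 to 4, against -0.002, 0.02, -0.01 and -0.08 for the Atf4 branch. The difference was 0.23, 0.10, 0.17 and 0.25, a mean of 0.19 ± 0.07 (SD, n = 4 arrays), and lay above 0 on all 4. With means over genes in place of medians, the difference was 0.21, 0.04, 0.06 and 0.25 (0.14 ± 0.11). The Atf4 side rests on 4 genes, of which Chac1 and Atf4 vary most.

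**Figure D4:**
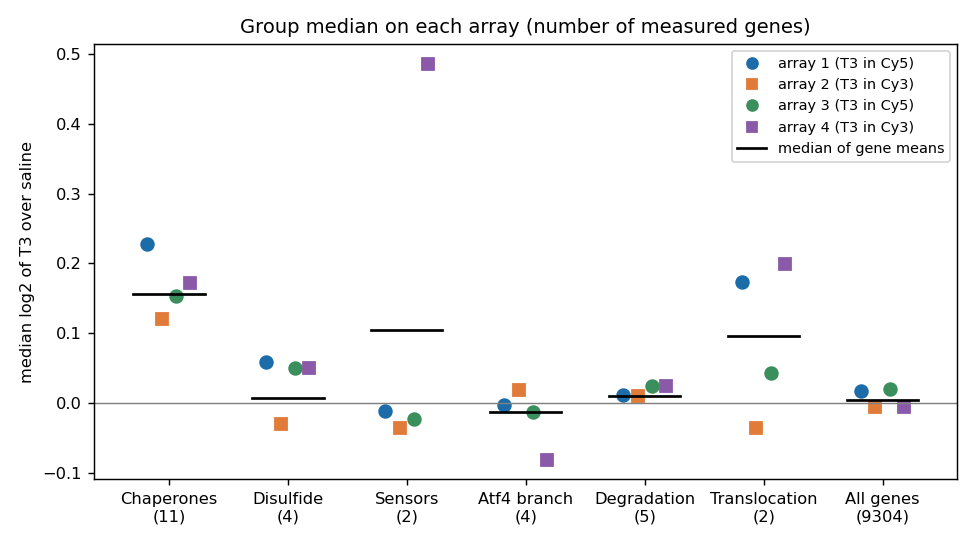
Median log2 ratio of T3 over saline of each role on each array, with the number of measured genes below its name and a line at the median of the gene means. The chaperone medians lie between 0.12 and 0.23 and those of all genes within 0.02 of 0, and the high point of the sensors on array 4 is a median of 2 genes, Eif2ak3 and Atf6.

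The ratios were also read within each dye orientation. The mean of the arrays with T3 in Cy5 and the mean of those with T3 in Cy3 had opposite signs for 12 of the 28 genes, against 54.8% of all genes, were both above 0 for 14 and both below 0 for 2. The dye term of the limma fit had an unadjusted p under 0.05 for 3 genes, Canx, Pdia4 and Selenos, against 15.6% of all genes. With that term in the fit, 6 of the 28 genes had an unadjusted p under 0.05 for T3, against 13.2% of all genes. For the chaperones the medians were 0.19 with T3 in Cy5 and 0.15 with T3 in Cy3, and 8 of 11 were above 0 in both. The median of the Atf4 branch was -0.01 with T3 in Cy5 and -0.05 with T3 in Cy3, so that the difference between the roles was 0.20 in either orientation.

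Other genes of the same pathways gave the set its setting. None passed the adjusted test in any of the 6 lists. Of 17 further ER folding enzymes and cofactors, 8 had a mean above 0 and the median was -0.003. The smallest p among them belonged to Rcn1, a calcium-binding protein of the ER, at -0.24 ± 0.11 (limma adjusted p = 0.41), followed by the oxidase Ero1a at -0.14 ± 0.12 and the prolyl isomerase Fkbp11 at -0.12 ± 0.15. All 3 lay below 0, Rcn1 and Ero1a on every array.

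Of 21 translocation and N-glycosylation genes, 15 had a mean above 0 and the median was 0.02. Srprb, a subunit of the signal recognition particle receptor, was above 0 on all 4 arrays at 0.28, 0.10, 0.23 and 0.26 (mean 0.22 ± 0.08, limma adjusted p = 0.44). Stt3a, a catalytic subunit of the oligosaccharyltransferase, averaged 0.16 ± 0.26, and Sec63, which links Hspa5 to the channel, averaged 0.10 ± 0.07. Of 15 further degradation genes, 7 had a mean above 0 and the median was -0.004, with Ufd1 at -0.12, Ube2j1 at 0.12 and Derl3 at 0.07.

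Of 22 further Atf4 targets and regulators, 9 had a mean above 0 and the median was -0.02. The smallest p belonged to enzymes of serine synthesis, Phgdh at -0.39 ± 0.25 (limma adjusted p = 0.32) and Psat1 at -0.26 ± 0.21 (limma adjusted p = 0.51), both below 0 on all 4 arrays, and to the stress protein Nupr1 at -0.29 ± 0.27. Of 9 other stress transducers, 5 had a mean above 0 and the median was 0.03, with the ER membrane protein Wfs1 at -0.18, the adaptor Traf2 at -0.14 and the death effector Bak1 at 0.11. Of 14 cytosolic and mitochondrial heat shock genes, 12 had a mean above 0 and the median was 0.07. Within that list the small heat shock gene Cryab was below 0 on all 4 arrays at -0.17 ± 0.05 (limma adjusted p = 0.57), while the co-chaperone Dnaja1 averaged 0.13 and the factor Hsf1 0.14.

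**Figure D5:**
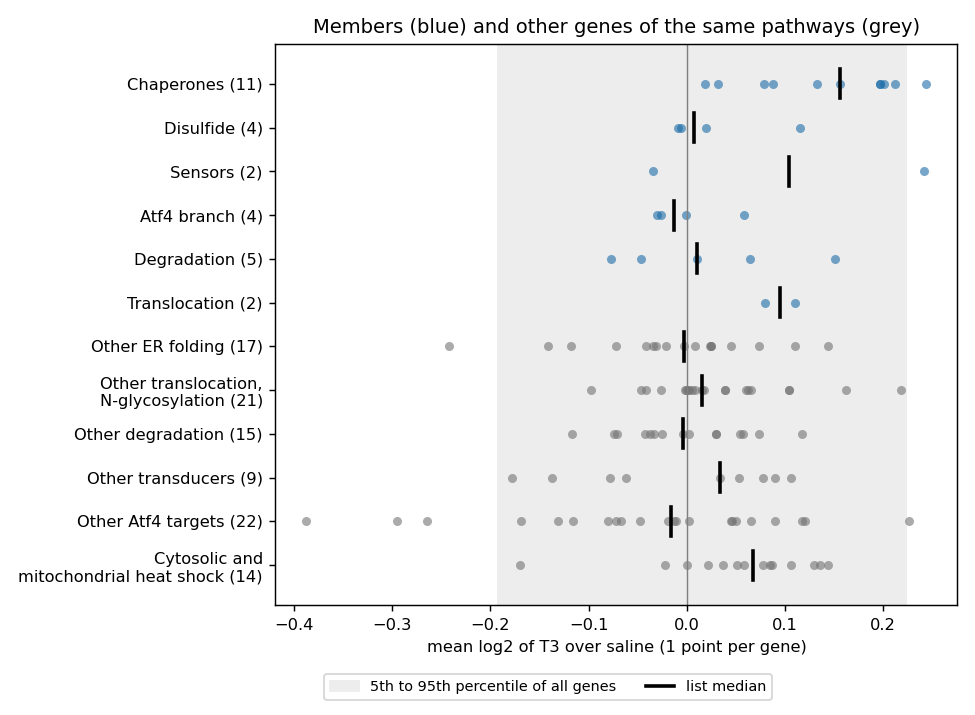
Mean log2 ratio of T3 over saline of each measured gene (1 point per gene) in the 6 roles of the set and in 6 lists of other genes of the same pathways, with a bar at each median. The grey band runs over the 5th to 95th percentile of all genes, -0.19 to 0.22, and holds all but Sdf2l1 and Eif2ak3 of the set.

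The arrays read T3 in the labelled direction, and the ratios of some cell markers differed widely between arrays. Whether differing tissue between rats lay behind this was not tested. Hr, a known target of thyroid hormone, had a ratio of 1.18 ± 0.15 (SD, n = 4, limma adjusted p = 0.013), Klf9 0.90 ± 0.27 (limma adjusted p = 0.052) and Dio3 2.49 ± 1.16 (limma adjusted p = 0.084). Neuronal markers were present, 7 of 9 with a mean above 0, a median of 0.02 and a mean log2 brightness over the list of 12.7 to 13.0 in the T3 rats and 12.7 to 13.0 in the saline rats. Markers of hypothalamic nuclei had a mean below 0 in 11 of 12 genes (median -0.18), those of oligodendrocytes in 8 of 9 (median -0.21) and those of astrocytes in 6 of 8 (median -0.17).

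Array 3 stood out for magnocellular Avp (-2.63) and Oxt (-2.53), for choroid plexus Ttr (3.53) and Sostdc1 (2.70) and for S100b (2.19). Array 2 stood out for the red cell genes Hbb (-3.25), Hbb-b1 (-4.25) and Alas2 (-3.20), and array 1 for Avp, Oxt and those red cell genes at 1.09 to 1.87, with Hbb-b1 at 1.12 on array 4. Single ratios beyond 1 were also seen for Gfap on array 4, Crym, Itgam, Tshb and Lhb on array 1 and Cga on array 3. The median of the chaperones was 0.19 without array 3, 0.15 without array 2 and 0.12 without array 1. Leaving out an array drops all that differs on it at once, so the part of tissue makeup in the chaperone median was not tested.

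The authors' deposited table of processed ratios gave a different ranking of single genes. Its columns followed the scanner ratios of their own arrays only in part (Pearson r across probes of 0.43, 0.43, 0.19 and 0.28), and its columns for arrays 3 and 4 correlated at -0.51. Neither the log base nor the normalization of that table is known. The spike-in probes gave its direction, but they do not settle that of columns 3 and 4. Both columns correlated positively with their own arrays, where the next best array reached 0.11 for column 3 and 0.27 for column 4. Turning a column would make the correlation with its own array negative, so the turned readings below run against these signs. The correlations of columns 3 and 4 with their own arrays are weak. As read, in the authors' deposited table Pdia3 had the highest mean of the set, 0.45, followed by Hspa5 at 0.23 and Sdf2l1 at 0.21, while Dnajb11 was at 0.06 and Calr at 0.03. Calr was at 1.15 on array 3 and -1.07 on array 4 in that table, against 0.21 and 0.14 from the scanner values. As read, all 11 chaperones had a mean above 0 in the authors' deposited table, but with column 3 turned 4 of 11 did and Calr was at -0.54, and with column 4 turned 7 of 11 did and Calr was at 0.57.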

How the data were processed

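Scanner files of 4 two-colour arrays were used. Per the file headers, Agilent Feature Extraction (10.7.3.1) produced them, and the probes are annotated on build rn4. They hold the median intensity of each spot and of its background, deposited without normalization. A processed intensity, which the scanner software had already corrected for background and dye, stands beside it per the file headers. The value table that the authors deposited was read as log2 ratios, and the submitters' processing notes name limma 3.18.9 for it.

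Background was corrected with normexp (offset 50) and ratios were loess-normalized with limma 3.58.1 under R 4.3.3, control spots at weight 0 and outlier spots left out. Ratios are log2 of T3 over saline. The brightness of single rats was taken after a further Aquantile scaling between arrays. Overlap in brightness sets rats of different arrays against each other and so leaves the pairing within arrays aside. Probes well above background on at least 3 arrays in a channel were kept (23191 of 41012), and accessions were named through RefSeq GRCr8. The median spot of an array had an intensity of 110 to 138.5 in Cy3 (background 49 to 52) and of 238 to 281 in Cy5 (background 101 to 104). Array number limits the precision.

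The labels give 8 rats and 4 replicates per treatment, so an array counts as 1 pair of separate rats. Ratios were tested in limma by lmFit and eBayes (2-sided) with Benjamini-Hochberg adjustment over kept probes. The fit was also tested on 4 simulated arrays. It called 0 of 100 probes with a true log2 ratio of 0.2 and 100 of 100 with a true log2 ratio of 1. Of 22991 probes with a true log2 ratio of 0, it called 14. The simulated noise was independent and normal, without dye or tissue differences, so these shares need not hold for the real arrays. There, Klf9 at 0.90 and Dio3 at 2.49 were not called (limma adjusted p of 0.052 and 0.084). A missing call therefore does not show that a gene was unchanged by an amount near 0.2. The members and lists were chosen with earlier results of these data known. All measured members are named. Of each other pathway list the genes past the threshold and otherwise the 3 with the smallest p are named, and a cell marker is named where 1 array is beyond 1 on the log2 scale. Hr, Klf9 and Dio3 check the direction. Protein sequences and their retention signals, which the design had listed, were not analysed here. Alternatives covered background, scaling, filters, dye term, probe choice, variance model, the authors' table and each array left out.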

Additional observations from a re-analysis of the deposited data

Results flagged for a closer look

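Of 34 sets of 4 array values tested in the ER stress and folding genes (27 genes with a value on every array, 6 role medians and 1 difference between the chaperones and the Atf4 branch), 4 held 1 array far from the other 3 relative to their whole range. Chance gives about 1 in 20, or 1.7 here. Eif2ak3 had a log2 ratio of T3 over saline of 0.91 on array 4, while the other arrays lay between -0.04 and 0.06. Pdia3 had 0.32 on array 4, while the others lay between 0.02 and 0.07. The median of the sensors was 0.49 on array 4, against values between -0.04 and -0.01 on the others, and it is a median of 2 genes that includes Eif2ak3. The median of the disulfide genes was -0.030 on array 2, against 0.05 to 0.06 on the others.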

How the results depend on the processing

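No member passed the adjusted limma test in any of the 14 settings tested, while between 0 and 68 probes of the whole array did. The 68 came without array 2, and the count was 23 in the main setting, 27 with no background subtraction, 14 with an offset of 16, 67 without the filter on dim probes, 19 with the stricter filter, 15 with a dye term and 10 in the authors' table. It was 0 with the processed signals, with median centring, with eBayes with trend and robust, and without array 1, 3 or 4. With the dye term, 6 members had an unadjusted p under 0.05, against 13.2% of all genes, and the lowest adjusted p was 0.25. Between 16 and 22 members had a mean above 0. The chaperone median was 0.10 with median centring, where the cause of its smaller size was not tested, and 0.12 to 0.19 with 1 array left out. The Atf4 branch median lay between -0.05 and 0.02, and the chaperone median minus that of the Atf4 branch between 0.13 and 0.23, around 0.17 in the main setting. Aquantile scaling leaves ratios as they are by construction.

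Of 420 member values over 15 settings, 394 kept the sign, and 17 members never changed it. Aquantile scaling, no filter on dim probes, the stricter filter and eBayes with trend and robust left every member's mean at its main value. The dye term did so for every member but Creld2. The mean over probes could move only members with more than 1 probe. Signs kept in those cases do not test stability, so the 394 overstates it. The 26 reversals fell on 11 members whose main ratio was at most 0.08 in size. Processed signals gave P4hb 0.0017, Chac1 0.0054 and Herpud1 -0.0056. Median centring gave Canx -0.025, Ppib -0.033, Pdia4 -0.0090 and Herpud1 -0.045. The authors' table gave Pdia6 0.16, P4hb 0.069, Asns 0.064 and Sec61b -0.0038, and the mean over probes gave Chac1 0.024. With 1 array left out, the ranges were -0.061 to 0.14 for Canx, -0.060 to 0.089 for Pdia4, -0.064 to 0.081 for Pdia6, -0.017 to 0.19 for Hsp90b1, -0.027 to 0.018 for P4hb, -4.0e-05 to 0.10 for Atf4, -0.012 to 0.029 for Herpud1, -3.3e-04 to 0.030 for Ppib, -0.059 to 0.0026 for Asns and -0.070 to 0.11 for Chac1. No paired analysis was possible because the samples form 1 group of ratios, each already taken within an array.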
